A study of Mus musculus with 8 samples.

Results

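Lines A (MEF10) and B (MEF16) are a pair of primary mouse embryonic fibroblast lines, and their expression was compared across 19938 genes, in all 4 line B samples against all 4 line A samples. These were all 8 of the 8 samples of the study. Each line was sampled without tamoxifen, in which state the labels give the cells as expressing PKM2, and with it, in which state they express PKM1; both are isoforms of the glycolytic enzyme pyruvate kinase made from 1 gene, Pkm. Each of these 4 groups had 2 samples. The labels give no other allele, no embryo age and no tamoxifen dose, and some of their fields mention mammary tumors, although the sample titles and the design name embryonic fibroblasts. A line is a single line here, and a p-value reflects how samples of these lines scatter and says nothing of other lines. Whether the pair of samples in a group grew in separate cultures is not given, so that scatter may be technical. In the titles all line A samples are numbered before those of line B, so line and sample order cannot be told apart.

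Fibroblasts taken from an embryo are a mixed culture of connective tissue cells from many parts of the body, and they keep some of the Hox and other positional gene activity of the place they came from. Such cultures can also carry along a few cells of other kinds, above all macrophages, the phagocytes that settle in every embryonic tissue. In a bulk sample, fewer cells of a type and less RNA per cell cannot be told apart.

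Values are log2 expression values from Affymetrix arrays, and a difference is the line B mean minus the line A mean, with the standard error (SE) from limma in a model that also holds tamoxifen. A gene is called higher or lower where its Benjamini-Hochberg adjusted p over all genes tested is under 0.05. A value is set against the other samples for the same gene, never against another gene, since probes differ in brightness. The fibroblast marker Vim, which encodes the intermediate filament vimentin, lay between 12.96 and 13.14 in the 8 samples, and Col1a2, which encodes a chain of type I collagen, between 10.12 and 10.77. The mean level of the 16 measured fibroblast markers was 9.24 to 9.63 in line A and 9.44 to 9.62 in line B.

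In all, 293 of the 19938 genes passed, 1.47% of those tested. Of these, 150 were higher in line B, 0.752%, and 143 were lower, 0.717%. The 12 largest higher differences among the ranked genes included the macrophage genes Lyz2, Ctss and Cd53, and the 12 largest lower ones the matrix genes Abi3bp, Lum and Thbs4, the neuropeptide precursor Penk and the complement inhibitor Cd59a. A difference of at least 2-fold was seen in 14 of the higher and 14 of the lower genes, and the median size among the 293 was 0.56 on the log2 scale, against 0.06 over all genes. In 253 of the 293 the 4 samples of one line did not overlap with the 4 of the other, which was true of 4.89% of all genes tested.

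Of the 293 calls, 107 were kept when any 1 of the 8 arrays was left out, 60 higher and 47 lower. The count fell to 184 and 148 without the first or the second array of line A without tamoxifen, to 116 and 122 without the first or the second array of line A with tamoxifen, and to 194 without the second array of line B without tamoxifen. Below, a gene is called firm when it belongs to the 107.

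Macrophage genes were higher in line B. Of 20 measured markers of macrophages and other blood cells, 11 were higher and 0 lower, and the median difference was 0.48, where the median over all genes tested was 0.02. These 11 are 55.0% of the list, where 1.47% of all genes were called. All 20 differences were positive. The list had been made with earlier results of these data known, so the count is a description. The promoters of 4 of the called markers are shown first because 11 of the 20 were called in 1 direction, with the motif GAGGAA, the core of the site that the myeloid factor PU.1 (Spi1) binds, in capitals, also where it reads TTCCTC on the reverse strand. Each run is the 250 bases before the gene's start in RefSeq (GRCm38.p6), 5′ to 3′ on the strand of the gene. Lyz2 lies at chr10:117282273-117282522 on the minus strand, Ctss at chr3:95526536-95526785 on the plus strand, Cd53 at chr3:106790150-106790399 on the minus strand and C1qc at chr4:136892915-136893164 on the minus strand.
Lyz2: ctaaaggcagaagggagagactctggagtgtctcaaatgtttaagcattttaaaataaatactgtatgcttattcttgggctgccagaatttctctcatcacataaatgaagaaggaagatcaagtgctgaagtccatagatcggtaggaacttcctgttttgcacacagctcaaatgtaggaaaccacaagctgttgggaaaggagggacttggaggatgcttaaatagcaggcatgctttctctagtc
Ctss: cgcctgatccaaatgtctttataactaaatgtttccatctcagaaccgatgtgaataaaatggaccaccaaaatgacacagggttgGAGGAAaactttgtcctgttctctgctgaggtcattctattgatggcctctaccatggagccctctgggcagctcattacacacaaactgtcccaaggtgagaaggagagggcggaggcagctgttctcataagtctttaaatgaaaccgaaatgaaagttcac
Cd53: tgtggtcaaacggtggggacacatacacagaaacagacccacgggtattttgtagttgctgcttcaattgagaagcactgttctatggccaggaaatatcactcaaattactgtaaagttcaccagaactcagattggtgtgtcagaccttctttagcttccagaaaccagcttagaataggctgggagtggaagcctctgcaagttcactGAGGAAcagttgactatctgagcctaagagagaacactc
C1qc: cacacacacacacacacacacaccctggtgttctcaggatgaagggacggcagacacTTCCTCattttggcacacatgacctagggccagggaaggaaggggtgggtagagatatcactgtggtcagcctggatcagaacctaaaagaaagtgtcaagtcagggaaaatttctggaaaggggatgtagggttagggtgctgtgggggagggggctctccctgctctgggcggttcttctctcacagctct
The motif, searched on both strands with no other motif, stood in 3 of these 4 windows and in 23.3% of the 32851 promoters of that table. Of the 8 called markers with an entry, 6 held it, as did 5 of the 6 markers with an entry that did not pass. The called markers thus did not stand apart from the rest of the list in holding these letters. A marker was counted where any of its entries held the motif, while the 23.3% is of single entries. The counts of markers are therefore not on the scale of that share.

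Lyz2 encodes the lysozyme of macrophages, which digests bacterial walls. It read 6.97 and 7.23 in line A without tamoxifen and 7.97 and 7.77 with it, and in line B 9.25 and 9.22 without and 9.71 and 9.08 with. Every line B sample was above every line A sample. The difference was 1.83 (SE 0.16, 3.56-fold, adjusted p = 0.000327). Ctss encodes cathepsin S, the lysosomal protease that trims antigens in antigen-presenting cells. Its values were 6.40, 6.45, 6.99 and 6.61 in line A and 8.12, 7.96, 8.30 and 8.10 in line B, with a gap of about a log2 unit between the lines and little spread within line B. Its difference of 1.51 (SE 0.10) corresponds to 2.84-fold. Cd53, a tetraspanin of white blood cells, was at 7.02, 6.72, 7.72 and 7.75 in line A and 8.31, 7.88, 8.42 and 8.82 in line B. The samples with tamoxifen were the highest of line A for this gene, and the lines still did not overlap, with a difference of 1.05 (SE 0.13, adjusted p = 0.00223).

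The other called markers cover several functions of these cells. Tyrobp, the signalling adaptor of myeloid receptors, was higher by 0.73 (SE 0.09), and Fcer1g, the shared chain of Fc receptors, by 0.62 (SE 0.10). Adgre1, which encodes a surface receptor used to mark macrophages, was at 5.45 to 5.79 in line A and 6.06 to 6.34 in line B, a difference of 0.59 (SE 0.07). For the secreted opsonin C1q, C1qc was higher by 0.62 (SE 0.08) and C1qb by 0.34 (SE 0.07), while C1qa, the remaining chain, read 7.02 and 7.07 on average, a difference of 0.05 (SE 0.07, adjusted p = 0.945). Mrc1, the mannose receptor, Laptm5, a lysosomal membrane protein of blood cells, and Cd52 were higher by 0.47 (SE 0.08), 0.59 (SE 0.11) and 0.50 (SE 0.08). Of the 11, the calls of Ctss, Lyz2, Adgre1, Cd53, Tyrobp and C1qc were firm. Without the second array of line A without tamoxifen, or without either array of line A with tamoxifen, 7 of the 20 were called, and without each of the other arrays 9 or 10.

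The remaining 9 markers lay between 0.03 for Fcgr1 and 0.51 for Ptprc and did not pass. Ptprc, which encodes the blood cell antigen CD45, was at 6.14 to 6.39 in line A and at 6.71, 6.54, 6.69 and 7.33 in line B (SE 0.13, adjusted p = 0.132), so 1 array with tamoxifen stood above the rest. Csf1r, the receptor that macrophages need to survive, read 6.46 on average in line A and 6.73 in line B (difference 0.26, SE 0.07, adjusted p = 0.132). Spi1, the PU.1 gene, which was not on the list, was at 6.15 and 6.28 (difference 0.14, SE 0.10, adjusted p = 0.84). The mean level of the 20 markers was 6.45 to 6.60 in the line A samples and 7.00 to 7.14 in the line B samples. The median difference was 0.37 between the samples without tamoxifen and 0.55 between those with it. These microarray values hold no zeros and no detection calls were used, so none of the markers is known to be absent from either line.

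**Figure D1:**
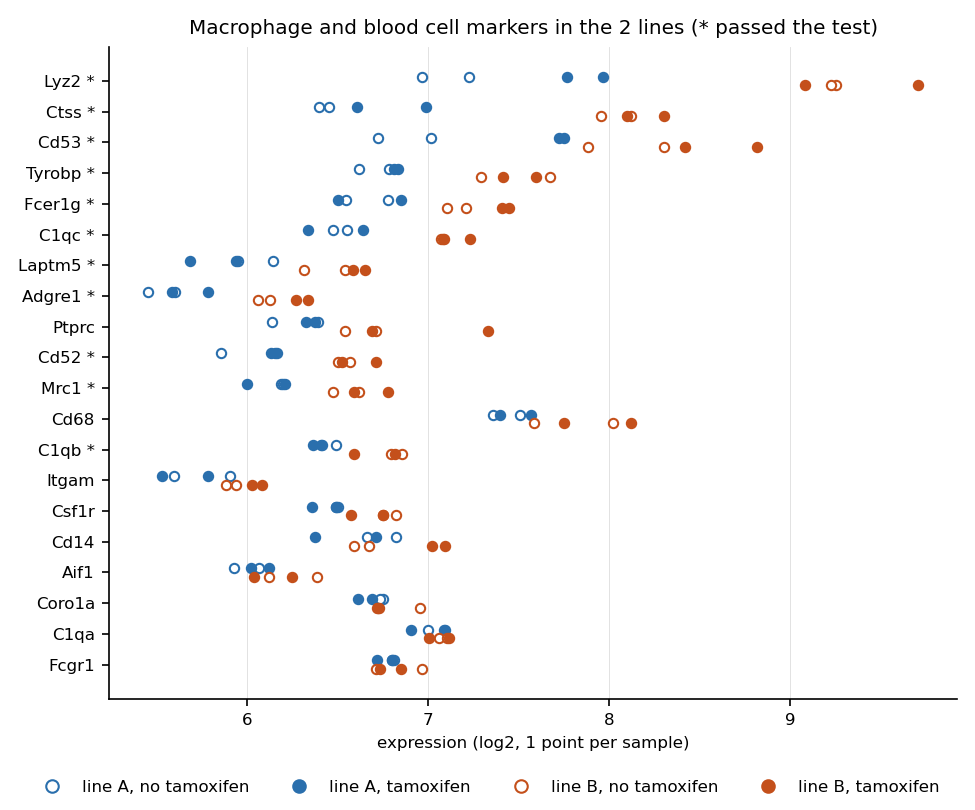
Log2 expression of macrophage and blood cell markers in each of the 8 samples, with line A in blue, line B in orange, open points without and filled points with tamoxifen. An asterisk marks the 11 markers that passed; Lyz2 and Ctss lie far apart in the lines, while C1qa and Fcgr1 overlap.

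Further genes known from myeloid cells were called higher in line B though they stand on none of the lists; they are named here after their values were seen. Olr1, a scavenger receptor for oxidised lipoprotein also made by endothelium, was at 7.50 and 7.50 without and 8.39 and 8.34 with tamoxifen in line A, and at 9.33, 9.13, 9.82 and 9.70 in line B. The difference was 1.56 (SE 0.09, 2.95-fold, adjusted p = 3.53e-05). Lilr4b and Lilrb4a, neighbouring and closely related inhibitory receptors of myeloid cells, were higher by 1.54 (SE 0.12) and 1.24 (SE 0.15), and whether their probes can tell them apart was not analysed. Ms4a7, a membrane protein of tissue macrophages, was higher by 1.04 (SE 0.13). Lcp1, an actin-bundling protein of white blood cells, was higher by 0.88 (SE 0.09), Havcr2, the receptor TIM-3, by 0.81 (SE 0.11), and the scavenger receptor gene Msr1 by 0.79 (SE 0.09). Mpeg1, a pore-forming protein of macrophages, and Cybb, the catalytic subunit of the phagocyte oxidase, were higher by 0.54 (SE 0.07) and 0.50 (SE 0.08). Lyz1, a near copy of Lyz2, was higher by 0.50 (SE 0.08), and its probes may read Lyz2 as well. The part of macrophage transcripts in the other line B differences was not tested.

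The largest differences on the higher side also included genes outside the macrophage list and the myeloid genes above, though not all of them are foreign to white blood cells. Tfpi2, a secreted inhibitor of serine proteases in the matrix, was at 7.84, 7.93, 8.64 and 8.57 in line A and 9.51, 9.38, 9.93 and 9.83 in line B, a difference of 1.42 (SE 0.08, 2.67-fold). Its samples with tamoxifen were the higher ones within each line, and the gap between the lines was wider than that. Its relative Tfpi, which inhibits the start of clotting, was higher by 0.57 (SE 0.07). Plac8, a small cysteine-rich protein of placenta and white blood cells, was higher by 1.29 (SE 0.14), and Gpr149, an orphan receptor, by 1.22 (SE 0.08). Itga4, the integrin subunit that binds fibronectin and VCAM-1, was at 7.53 to 8.05 in line A and 8.61 to 9.14 in line B (1.17, SE 0.12), and was 1 of 20 measured integrin genes called. Emcn, a sialoprotein of venous and capillary endothelium, was higher by 1.05 (SE 0.11). All 12 leading genes on this side, Lyz2, Olr1, Lilr4b, Ctss, Tfpi2, Plac8, Lilrb4a, Gpr149, Itga4, Cd53, Emcn and Ms4a7, were firm.

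**Figure D2:**
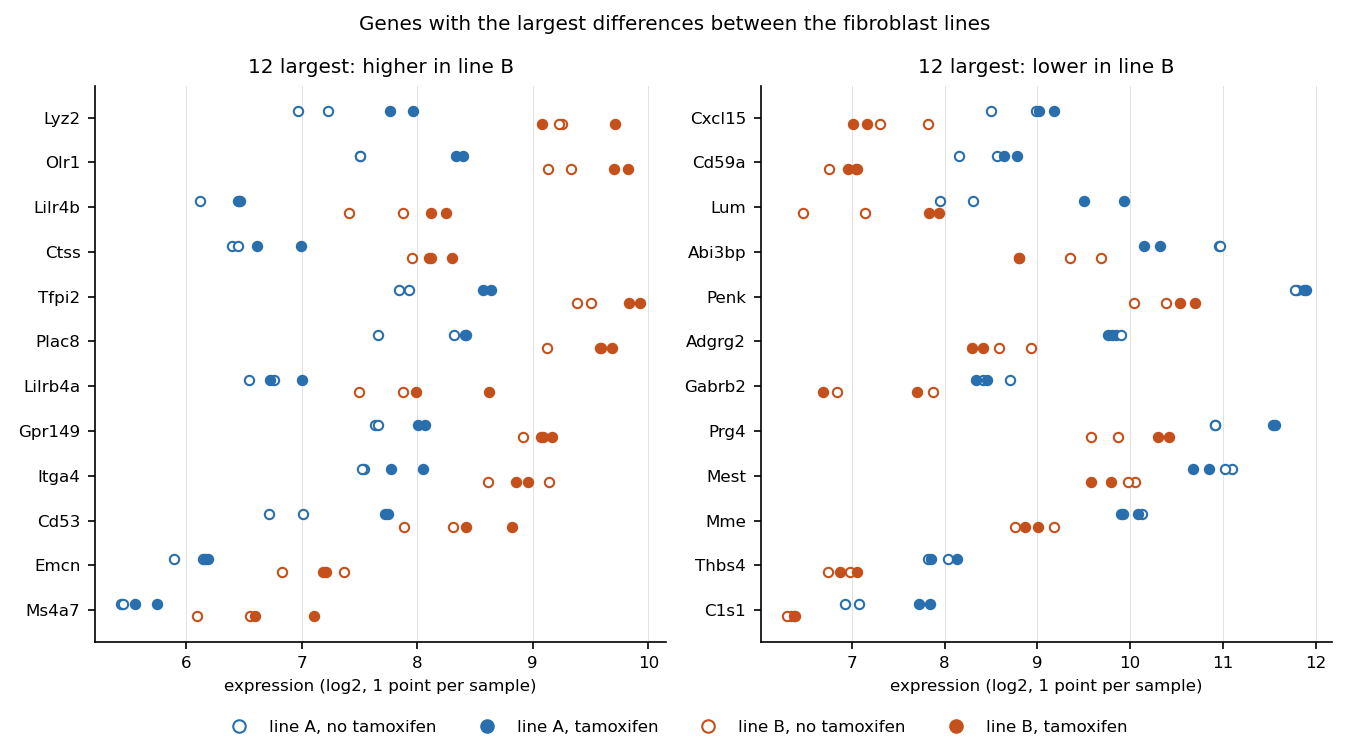
Log2 expression of the 12 genes with the largest higher and the 12 with the largest lower differences in line B, 1 point per sample (line A blue, line B orange, open without and filled with tamoxifen), among called genes whose samples do not overlap between the lines. Lyz2 heads the higher genes and Cxcl15 the lower ones, and the 4 samples of each line stay apart in all 24 by construction of the ranking.

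Of 60 measured proteoglycans and matrix glycoproteins, 6 were lower in line B and 0 higher. The list as a whole had no direction: 34 differences were positive and 26 negative, with a median of 0.02. Without the 3 arrays at one end of the first principal component 8 were lower and the median was -0.10. With the leading within-group axis as a covariate 8 were higher and 11 lower. That covariate leaves each difference unchanged and takes up residual spread, so its larger counts are largely built in. Abi3bp, a matrix protein that binds collagen, read 10.95 and 10.97 without and 10.15 and 10.32 with tamoxifen in line A, and 9.69, 9.35, 8.80 and 8.80 in line B. It was lower with tamoxifen in both lines, and line B lay below line A in both treatments, by 1.44 over both (difference -1.44, SE 0.08, 2.71-fold, adjusted p = 3.53e-05). Lum encodes lumican, a small proteoglycan that spaces collagen fibrils. Its values were 7.95, 8.31, 9.50 and 9.93 in line A and 7.14, 6.47, 7.83 and 7.93 in line B. The samples with tamoxifen were well above those without in both lines, and the highest line B sample all but reached the lowest line A sample. The difference was -1.58 (SE 0.17, 2.99-fold lower in line B), and without a term for tamoxifen it did not pass (adjusted p = 0.219 in limma).

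Thbs4 and Comp are related pentameric glycoproteins of tendon and cartilage. Thbs4 was at 7.82 to 8.13 in line A and 6.75 to 7.06 in line B (-1.04, SE 0.09), and Comp at 7.37 to 7.55 and 6.95 to 7.22 (-0.40, SE 0.07). Fmod and Ogn, small proteoglycans of the same class as lumican, were lower by 0.77 (difference -0.77, SE 0.15) and 0.55 (-0.55, SE 0.11). The calls of Abi3bp, Lum and Thbs4 were firm, and those of Comp, Fmod and Ogn were each lost without at least 1 array. Without any 1 of the 4 line A arrays, 3 members were called lower instead of 6. Prg4, which encodes the joint lubricant lubricin and stood on none of these matrix lists, was at 10.91, 10.91, 11.54 and 11.56 in line A and 9.87, 9.58, 10.30 and 10.42 in line B. Its line difference was -1.19 without and -1.19 with tamoxifen (both with SE 0.11), the same in each treatment to the second decimal. Scx, a transcription factor of tendon cells named here after its value was seen, had a difference of -0.29 (SE 0.06), a call that was lost without any 1 of the 8 arrays.

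Of 37 collagen genes 1 was lower and 0 higher, 2.7% of the list against 1.47% of all genes. It was Col10a1 (-0.68, SE 0.09), the collagen of hypertrophic cartilage. The other 36 lay between -0.27 for Col11a1 and 0.15 for Col4a2. Of 41 matrix proteases and inhibitors none passed, the lowest being Mmp3 at -0.55 and the highest Htra1 at 0.35. Among 25 cartilage and bone genes 3 were lower, Col10a1, Comp and the link protein gene Hapln1 (-0.58, SE 0.11), and 0 were higher; without either array of line A with tamoxifen 1 was called. On the fibroblast list 1 gene was higher and 1 lower of 16. Thy1, a surface protein used to mark fibroblasts, was at 11.11 to 11.35 in line A and 11.70 to 11.88 in line B (0.57, SE 0.07), while Lum was the lower one. Dpt, a matrix protein of the dermis on the same list, had a large difference of 0.82 (SE 0.17) that did not pass (adjusted p = 0.0515).

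Other large differences on the lower side concerned secreted and surface proteins. Penk, the precursor of the enkephalin peptides, was at 11.80, 11.78, 11.87 and 11.89 in line A and 10.38, 10.04, 10.54 and 10.70 in line B, so that line A was nearly flat over its 4 samples. The difference was -1.42 (SE 0.10, 2.68-fold). Mme, the peptidase neprilysin that degrades enkephalins, was lower by 1.06 (-1.06, SE 0.10). Adgrg2, an adhesion receptor on the X chromosome, differed by -1.27 (SE 0.10). Mest, expressed from the paternal copy only, read 11.10, 11.03, 10.67 and 10.85 in line A and 10.05, 9.97, 9.79 and 9.57 in line B, with no overlap and a difference of -1.07 (SE 0.07, adjusted p = 7.79e-05). It was the 1 called gene among 42 measured imprinted genes, of which the other 41 lay between -0.27 for Copg2, its neighbour, and 0.34 for Nnat. Igf2, the imprinted growth factor, was at 10.20 and 10.14 on average (difference -0.06, SE 0.10).

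Gabrb2, a subunit of the GABA-A receptor, was the least even of the leading genes. It was at 8.34 to 8.71 in line A and at 7.88, 6.84, 6.69 and 7.71 in line B, a difference of -1.20 (SE 0.24, adjusted p = 0.0364). Its call was lost without each of 6 of the 8 arrays, where the adjusted p from limma ran from 0.0531 to 0.142. The related subunit genes Gabrb1, Gabra4 and Gabra3, named after their values were seen, went the other way, by 0.50 (SE 0.08), 0.56 (SE 0.10) and 0.32 (SE 0.06). Leaving out 1 array at a time kept the call of Gabrb1 in 5 of the 8 fits, that of Gabra4 in 4 and that of Gabra3 in 0.

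Complement genes were called in both directions. Of 22 measured, 4 were higher and 3 lower in line B, 31.8% of the list against 1.47% of all genes. The median was 0.05. The higher ones were C1qc, C1qb and the receptors of the anaphylatoxins, C3ar1 at 6.61 to 7.35 in line A and 7.70 to 8.08 in line B (0.89, SE 0.10) and C5ar1 (0.48, SE 0.09). The macrophage marker list, which holds C1qc and C1qb, was higher beside them, as given above. The lower ones act on the start and the end of the cascade. Cd59a, a membrane protein that blocks the attack complex, was at 8.15, 8.57, 8.64 and 8.78 in line A and 7.05, 6.76, 6.96 and 7.04 in line B, a gap of over a log2 unit in every sample. The difference was -1.58 (SE 0.11, 2.99-fold lower, adjusted p = 7.39e-05). C1s1, a protease of the C1 complex, was at 6.93, 7.08, 7.72 and 7.85 in line A and between 6.30 and 6.39 in line B, so that tamoxifen samples stood higher in line A while line B was flat. Its difference was -1.04 (SE 0.13), or -0.68 without and -1.40 with tamoxifen. Its near copy C1s2 was lower by 0.66 (-0.66, SE 0.11), and reads of their probes may not be separate. Masp1, a protease of the lectin pathway, was lower by 0.48 (-0.48, SE 0.10), a call that was kept in 1 of the 8 fits that left out an array. Without any 1 of the line A arrays, or without the second array of line B without tamoxifen, 2 complement genes were called higher and 2 lower.

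Of 54 measured chemokines, cytokines and growth factors, 3 were higher and 7 lower in line B, 18.5% of the list against 1.47% of all genes. The median was 0.02. The higher ones were Ccl2, Ccl11 and Ptn (0.55, SE 0.11). Called chemokine genes stood next to each other on 2 chromosomes, and of these Ccl12 and Cxcl3 were not on the list. On chromosome 11, Ccl2, which attracts monocytes, was higher by 0.57 (SE 0.07), Ccl11, which attracts eosinophils, by 0.62 (SE 0.10) and Ccl12 by 0.61 (SE 0.10). Ccl7, which lies among them, had a difference of 0.31 (SE 0.07) that did not pass (adjusted p = 0.0863). For Ccl2 the values were 10.30, 10.49, 11.01 and 11.09 in line A and 10.99, 10.98, 11.64 and 11.56 in line B, so the lines overlap unless samples of the same treatment are compared. On chromosome 5, genes for ligands of neutrophil receptors were lower. Cxcl5 went from 11.11 to 11.56 in line A to 10.23 to 10.89 in line B (-0.84, SE 0.08), Cxcl3 differed by -0.39 (SE 0.07) and Cxcl15 by -1.60 (SE 0.18). Cxcl15 was at 8.50, 8.99, 9.02 and 9.18 in line A and 7.82, 7.30, 7.16 and 7.02 in line B, the largest lower difference among the 24 ranked genes. Between them, Ppbp (-0.32, SE 0.08, adjusted p = 0.0952) and Pf4 (0.15, SE 0.09) did not pass. The call of Cxcl3 was kept in 1 of the 8 fits that left out an array, and those of Ccl11 and Ccl12 in 6. The chemokines of the same cluster are close relatives, and cross-reading of their probes was not analysed.

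Among the other ligands, Angptl7, an angiopoietin-like secreted protein, averaged 8.80 in line A and 7.80 in line B (SE 0.09), with samples at 8.55 to 9.08 and at 7.57 to 7.90. Angpt1, the ligand of the endothelial receptor Tie2, was lower by 0.76 (-0.76, SE 0.13), and Cxcl12, the ligand of Cxcr4, by 0.39 (-0.39, SE 0.08). Of the 10 calls on the list, those of Angptl7, Cxcl5, Cxcl15 and Ccl2 were firm. Without the second array of line A without tamoxifen, or the first of line A with it, 1 was called higher and 3 lower, and without the second of line A with tamoxifen 2 and 3. Il6, a cytokine on this list, had a difference of 0.44 (SE 0.16, adjusted p = 0.414).

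Hox genes mark the level of the body axis and, in limbs, the distance from the trunk. Of 37 measured, 2 were higher and 1 lower in line B, 8.1% of the list against 1.47% of all genes. The median was 0.05. Hoxd13, active in the far end of limbs and in the genital bud, read 9.55, 9.35, 9.13 and 9.21 in line A and 8.91, 9.06, 8.73 and 8.66 in line B. The line A samples were all above those of line B, by a narrow gap (-0.47, SE 0.07, adjusted p = 0.0102). Hoxb6, a trunk gene, read 7.50, 7.71, 7.71 and 7.71 in line A and 8.38, 8.08, 8.14 and 8.53 in line B (0.62, SE 0.10). Hoxb9, of the same cluster, was at 7.80 to 8.07 and 8.30 to 8.48 (0.42, SE 0.07). Between them in the cluster, Hoxb7 had a difference of 0.10 (SE 0.07) that did not pass, and Hoxb8 was not measured. Hoxa13, the limb relative of Hoxd13, was at 8.69 and 8.34 on average (-0.35, SE 0.09, adjusted p = 0.11), and Hoxc8 had the largest positive difference that did not pass (0.54, SE 0.20). Each of the 3 Hox calls was lost when some single arrays were left out: Hoxd13 was kept in 6 of the 8 such fits, Hoxb6 in 5 and Hoxb9 in 4.

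Of 72 other positional transcription factors, 2 were higher and 5 lower, 9.7% of the list against 1.47% of all genes. Twist2, a factor of dermal mesenchyme, was higher by 0.47 (SE 0.09) and Meis1, a partner of Hox proteins, by 0.48 (SE 0.09). Eya1, a coactivator in ear and kidney formation, was lower by 0.42 (-0.42, SE 0.06), Foxc1 by 0.57 (-0.57, SE 0.11), Dlx5 by 0.40 (-0.40, SE 0.08), Msx2 by 0.36 (-0.36, SE 0.07) and Tbx18 by 0.32 (-0.32, SE 0.07). All 7 had no overlap between the lines, as had 253 of the 293 called genes and 4.89% of all genes tested. None of the 7 was firm. Without either array of line A with tamoxifen, 0 of the Hox genes and 0 of these factors were called. Some firm calls were regulators of transcription outside the lists, named here after their values were seen. Tfap2b (-0.62, SE 0.06), Trps1 (-0.83, SE 0.09), Meox2 (-0.61, SE 0.07), Eya4 (-0.65, SE 0.09) and Mecom (-0.60, SE 0.08) were lower in line B, and Lbh was higher (0.57, SE 0.06). Trps1, a repressor whose loss causes a skeletal syndrome, was at 10.62 to 11.18 in line A and 9.65 to 10.51 in line B.

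**Figure D3:**
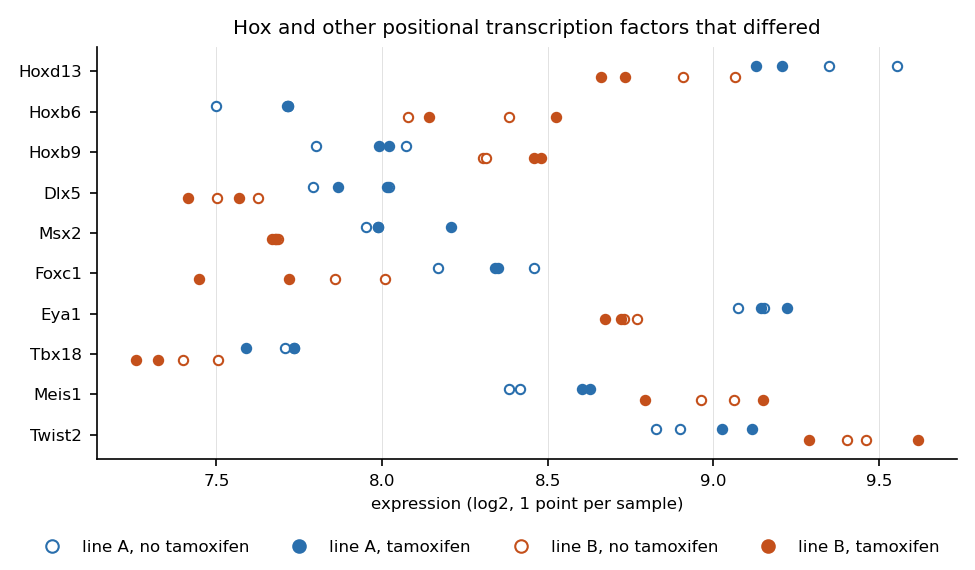
Log2 expression of the 3 called Hox genes and the 7 called positional transcription factors in each of the 8 samples, with line A in blue, line B in orange, open points without and filled points with tamoxifen. Hoxb6, Hoxb9, Meis1 and Twist2 lie higher in line B and the other 6 lower.

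Of 52 measured Wnt genes 4 were lower and 0 higher in line B, 7.7% of the list against 1.47% of all genes. The median over the list was 0.03. The 4 called genes encode secreted or surface modulators. Rspo2, which raises Wnt signalling through Lgr receptors and is needed in limb buds, was at 9.04, 8.98, 8.67 and 8.59 in line A and 8.29, 8.25, 7.71 and 7.77 in line B (-0.81, SE 0.07, adjusted p = 0.000204). Both lines were lower with tamoxifen by similar steps. Rspo3, of the same family, differed by -0.61 (SE 0.11), and Lgr4, one of their receptors, by -0.48 (SE 0.08). Sfrp2, a secreted antagonist, read 8.81, 8.78, 9.28 and 9.27 in line A and 8.08, 7.86, 8.46 and 8.40 in line B, higher with tamoxifen in both lines and lower in line B throughout (-0.84, SE 0.07). The calls of Rspo2 and Sfrp2 were firm. The lower count was 2 without the second array of line A without tamoxifen, either array of line A with it, or the second of line B without it. Without the first array of line A with tamoxifen, and without the second of line B with it, 1 Wnt gene was called higher.

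A ligand gene and a receptor gene of the fibroblast growth factor family were each lower in line B. Fgf10, the mesenchymal signal of limb and lung buds, was at 8.64, 8.73, 8.61 and 8.60 in line A and 8.09, 7.67, 7.72 and 8.10 in line B (-0.75, SE 0.11). Fgfr2 was at 9.23, 9.29, 9.31 and 9.24 in line A and 8.77, 8.67, 8.49 and 8.54 in line B (-0.65, SE 0.07). In both genes the line A samples lay close together and the line B samples were more spread. Spry2, a feedback inhibitor of the pathway, was higher by 0.45 (SE 0.09), and the other 21 of 24 measured members lay between -0.19 for Fgf9 and 0.30 for Spry1. The called members are 12.5% of the list, where 1.47% of all genes were called. The calls of Fgf10 and Fgfr2 were firm, and that of Spry2 was kept in 1 of the 8 fits that left out an array. Of 55 semaphorin, ephrin, slit and netrin genes, which guide axons and cells, 5 were lower and 0 higher, 9.1% of the list. They were Sema3d (-0.70, SE 0.07), Unc5c (-0.68, SE 0.07), Robo2 (-0.64, SE 0.13), Sema3c (-0.49, SE 0.09) and Epha7 (-0.45, SE 0.09). Sema3d and Unc5c were firm, and Robo2 and Epha7 were each kept in 1 of the 8 fits that left out an array. The count was 2 without either array of line A with tamoxifen, either of line B with tamoxifen, or the second of either line without it, 3 without the first of line A without tamoxifen and 6 without the first of line B without it. Slit3, a ligand of Robo receptors, had a positive difference of 0.66 that did not pass.

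Lists of markers of other cell types had between 0 and 3 called members each; with 9 to 28 measured genes a list, that is 0% to 18.2%, where 1.47% of all genes were called. Among 19 smooth muscle and myofibroblast genes 2 were higher, Myh11, the smooth muscle myosin (0.63, SE 0.07), and Lmod1 (0.34, SE 0.07), and the median was 0.13. The call of Lmod1 was lost without any 1 of the 8 arrays, which left 1 call, and without the 3 arrays at one end of the first principal component the median was 0.06. Myh11 was at 8.65, 8.64, 9.24 and 9.04 in line A and 9.25, 9.34, 9.71 and 9.77 in line B, so its lines were just apart. Of 11 pericyte genes Mcam was higher (0.67, SE 0.09) and Rgs5 lower (-0.51, SE 0.11). The call of Mcam was firm, and that of Rgs5 was kept in 1 of the 8 fits that left out an array. Of 19 endothelial genes Emcn and Flt1, a receptor of VEGF (0.76, SE 0.09), were higher and Erg was lower (-0.48, SE 0.07), whereas the defining markers Pecam1 (-0.02, SE 0.07), Cdh5 (0.06, SE 0.06) and Kdr (-0.07, SE 0.08) did not pass. Of 9 mesothelial genes Upk1b was higher, at 7.96, 8.32, 9.58 and 9.49 in line A and 9.45, 9.50, 10.65 and 10.22 in line B (1.12, SE 0.13), and the list's median was 0.27.

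Lpl, the lipoprotein lipase of fat cells and macrophages, was higher by 0.80 (SE 0.10), and Fabp4, a fatty acid carrier of the same cells, lower by 0.53 (-0.53, SE 0.11), out of 17 adipocyte genes. Of 24 neural and glial genes Tubb3, a tubulin of neurons, was higher by 0.85 (SE 0.09) and Map2, which binds dendritic microtubules, lower by 0.78 (-0.78, SE 0.07). Acta1 was higher among 28 skeletal muscle genes (0.60, SE 0.13). The calls of Lpl, Tubb3 and Map2 were firm. Those of Fabp4 and Acta1 were kept in 2 and 3 of the 8 fits that left out an array. No epithelial gene of 20 and no germ cell or pluripotency gene of 14 passed.

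**Figure D4:**
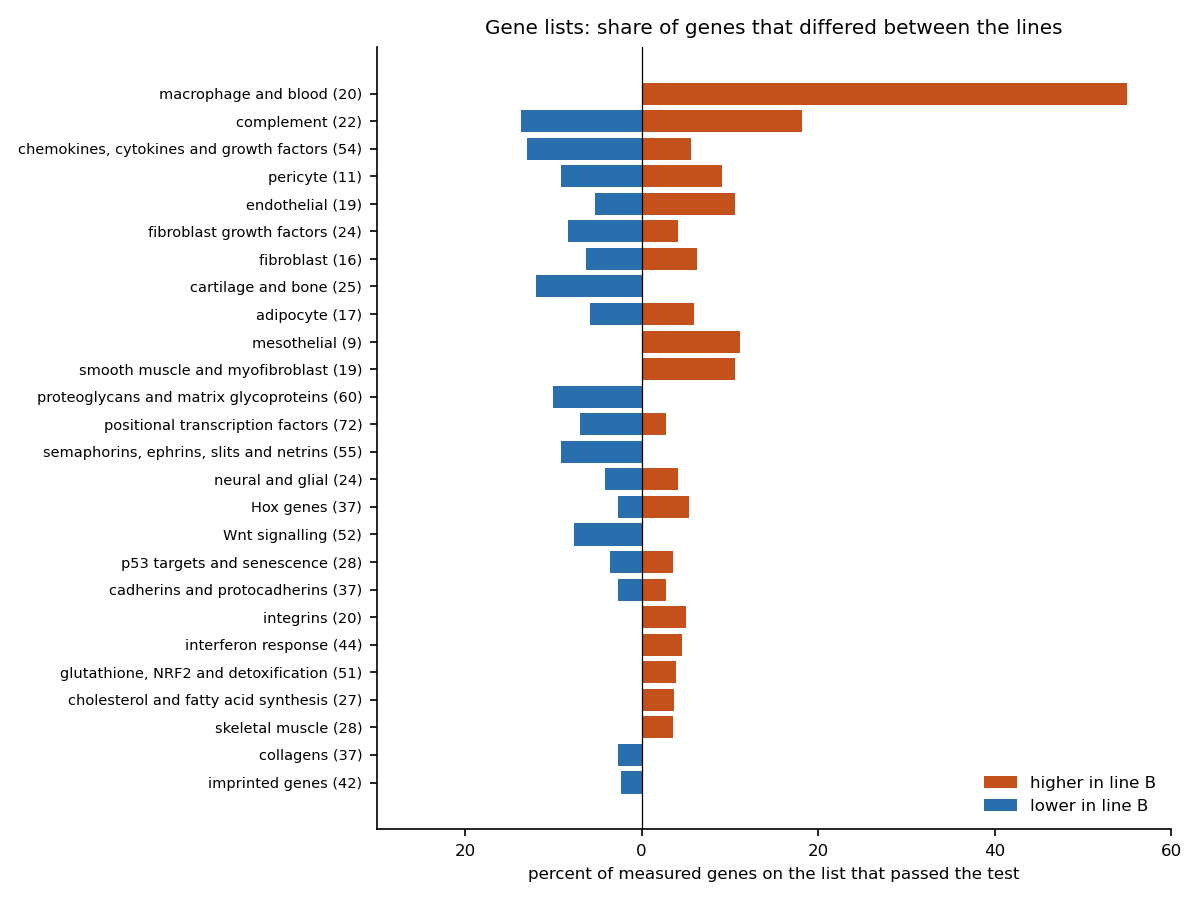
Percent of the measured genes of each list that were called higher (orange, to the right of 0) or lower (blue, to the left) in line B, for lists with at least 9 measured members and at least 1 call; the number measured stands in brackets. The macrophage and blood list has 11 higher and 0 lower of 20, and the chemokine, cytokine and growth factor list 3 higher and 7 lower of 54.

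Of 42 mitosis genes 0 were called, the extremes being Cenpk at -0.18 and Bub1 at 0.27, and of 44 DNA replication genes 0 were called, from Rrm2 at -0.17 to Uhrf1 at 0.31. The 22 glycolysis genes lay between -0.19 for Ldha, the muscle subunit of lactate dehydrogenase, and 0.25 for Hk2, a hexokinase, with 0 called. Of 32 nuclear respiratory chain genes 0 were called, and 0 of 44 genes of TGF-beta, BMP and activin signalling. With 1.47% of all genes called, counts of 0 in lists of this size are near the background and are not a result about these genes. A p that misses the threshold does not show that these genes were at the same level in both lines. Of 27 cholesterol and fatty acid synthesis genes 25 differences were positive, with a median of 0.13. Without the 3 arrays at one end of the first principal component that median was 0.02. Insig1, which restrains the pathway, was called (0.38, SE 0.08), a call that was kept in 1 of the 8 fits that left out an array. Of 44 interferon response genes 2 were called higher, Sp100 (0.46, SE 0.08) and Ifi205 (0.48, SE 0.10), and neither was firm. Outside that list, Ifi209, a relative of Ifi205, and the Trim genes Trim12a and Trim30d were called higher, and these calls were firm. They are named here after their values were seen. In all, 81 of the 293 called genes stood on at least 1 of the 42 lists and 212 on none, and 16 lists had no called gene.

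Pkm, which encodes both isoforms that tamoxifen exchanges, read 11.19, 10.99, 10.86 and 10.74 in line A and 10.82, 11.21, 11.41 and 10.75 in line B. The samples overlapped, and the difference was 0.11 (SE 0.15, 95% interval -0.22 to 0.43, adjusted p = 0.945). The exons its probes match were not analysed, so the value does not check the exchange of isoforms. Pklr, the pyruvate kinase gene of liver and red cells, averaged 6.97 in both. None of the sex-linked genes passed. Xist, transcribed from the inactive X chromosome of female cells, was at 11.70 to 11.78 in line A and 11.40 to 11.68 in line B (-0.22, SE 0.08, adjusted p = 0.35), so its lines did not overlap but lay close together. The Y-linked genes Eif2s3y, Kdm5d and Uty averaged 3.84, 5.46 and 5.14 in line A and 3.92, 5.50 and 5.15 in line B, and 0 of the 4 X-linked genes that escape inactivation passed.

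The line difference was then taken within each treatment, which asks whether it depends on tamoxifen treatment. Treatment and the isoform given in the labels change together, so the 2 cannot be told apart. Without tamoxifen 65 genes were called, 0.326%, 37 higher and 28 lower in line B. With tamoxifen 106 were called, 0.532%, 36 higher and 70 lower. These counts rest on single arrays of both lines. Leaving out any array of the same treatment, from line A or from line B, lowered the count, and more so for line A. Each such fit left a group without a replicate, so its count is only a rough guide. Of the 65, all 65 had the same sign with tamoxifen and 43 were also called there, which is 66.2% of the 65 and 40.6% of the 106. Of the 106, 102 had the same sign without tamoxifen. Over all genes 56.4% had the same sign. The median size of the 65 was 0.98 without and 0.83 with tamoxifen, and that of the 106 was 0.84 with and 0.60 without, each larger in the treatment in which the genes were chosen. Across genes, which are no independent replicates, the differences of the treatments correlated at 0.445 by Pearson's r and 0.214 by Spearman's rho. Without the second array of line B without tamoxifen, the values were 0.168 and -0.074, with 44.8% of the same sign, and without the second array of line A without tamoxifen 0.248 and 0.013, so the share over all genes rests on single arrays.

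No gene passed the test of the difference between those line differences (0 called by limma, 565 or 2.83% at an unadjusted p under 0.05). Of the 293 genes called in the joint comparison, 34 (11.6%) had an unadjusted p under 0.05 in that limma test. Both tests use the same samples, so this share is a description. With 2 samples in each group the test has little power. It does not show that the line differences were the same in both treatments. Dcn, the proteoglycan decorin, illustrates what lay behind the smallest p-values. It was at 9.95 and 10.05 without and 11.22 and 11.38 with tamoxifen in line A, and at 10.99, 10.75, 11.31 and 11.35 in line B. The lines were apart without tamoxifen, by 0.87 (SE 0.11), and overlapped with it, by 0.03 (SE 0.11), and the adjusted p of that change was 1. Agtr2, an angiotensin receptor, went the other way round, with a line difference of 0.18 (SE 0.17) without and -1.13 (SE 0.17) with tamoxifen. Robo2 and C1s1 were called in the joint comparison and had larger differences with tamoxifen, -1.02 against -0.27 for Robo2. Rdh9, a retinol dehydrogenase relative, had -0.23 (SE 0.09) without and 0.53 (SE 0.09) with tamoxifen.

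**Figure D5:**
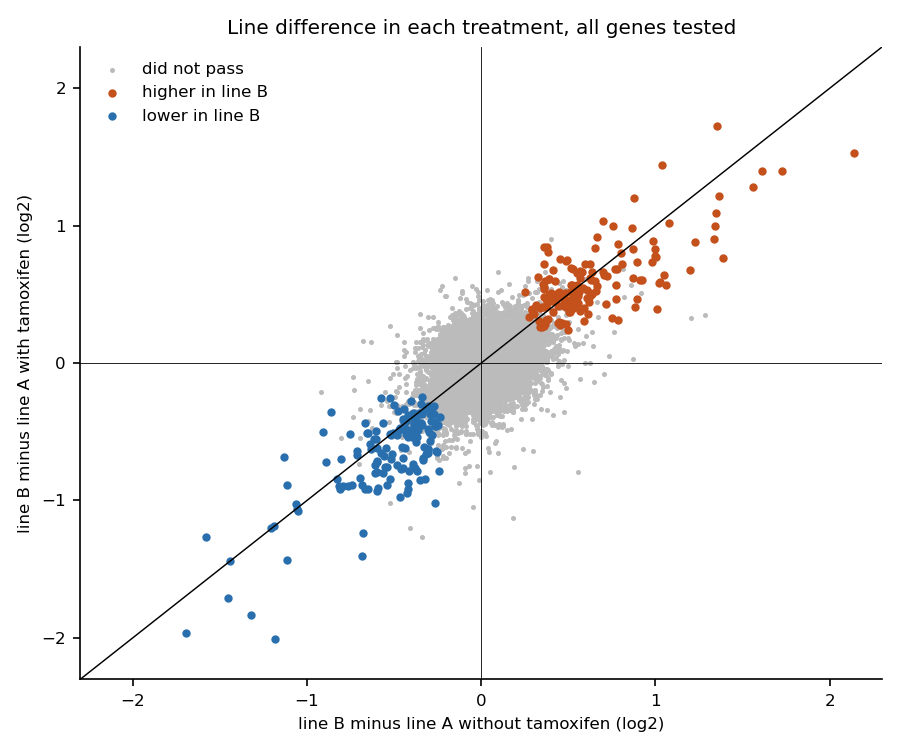
Log2 difference of line B minus line A for each gene, without tamoxifen on the horizontal axis and with tamoxifen on the vertical axis, with genes called higher in line B in orange, those called lower in blue and all others in grey; the diagonal marks equal differences. All 293 called genes lie in the quadrants of equal sign, which the choice by the difference over both treatments favours but does not require.

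The called genes were spread over the chromosomes. The median difference was between 0.003 and 0.035 on every autosome and on X, and between 0.61% of the genes tested (chromosome 12) and 3.01% (chromosome 13) were called. Apart from the chemokine neighbours, a run of called genes stood on chromosome 13, where Ctla2a (1.07, SE 0.21) and Ctla2b (0.62, SE 0.11), near-identical cysteine protease inhibitors, and the unnamed transcript 4930486L24Rik were higher in line B. Tpbpb, which lies between Ctla2b and Ctla2a, had a difference of -0.01 (SE 0.09) and did not pass, and the calls of Ctla2a and Ctla2b were each kept in 2 of the 8 fits that left out an array.

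Samples of the same group correlated at 0.9894 to 0.9974 over all genes, and samples of different lines at 0.9875 to 0.9955, and these ranges overlap. Of the sum of squares over all genes, line accounted for 20.7%, tamoxifen for 22.4%, their interaction for 7.9% and the spread within groups for 49.1%. The first principal component held 37.0% of the variance and set apart 3 arrays, the first of line A without tamoxifen, the second of line B without and the first of line B with tamoxifen. Without those 3 arrays 320 genes were called, of which 206 were among the 293, and 12 of the 20 macrophage markers were called higher.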

How the data were processed

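RNA of 8 samples was hybridised to Affymetrix microarrays. RMA normalization was done by the authors with Expression Console, per the labels; the version was not given in those sources. The deposited table holds log2 values, 1 column per sample, from 2.61 to 14.12, with column medians of 7.17 to 7.24. RMA equalises the distributions of the arrays and compresses differences between dim probe sets. No array was normalized again for the results given first. No detection calls were used, and the number of arrays limits the precision.

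Of 35556 probe sets, 21789 had 1 gene symbol in the platform annotation from GEO, 1621 had several and 12146 had none listed. The RefSeq gene table held the gene IDs of 21698 and changed 0 symbols. For 999 genes with more than 1 probe set the one with the highest mean was used, which left 19938 genes, 19852 of them with a chromosome. Promoter sequences are RefSeq's, GRCm38.p6.

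Genes were tested by lmFit and eBayes of limma 3.58.1 under R 4.3.3 (Benjamini-Hochberg adjustment over all genes, threshold 0.05). The line difference was fitted on all 8 samples with terms for line and for tamoxifen (5 residual degrees of freedom), and the differences within each treatment and their difference from a model of the 4 group means (4 residual degrees of freedom). The fits were tested on simulated data.

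The genes and the 42 gene lists (1279 genes, 1178 measured) were chosen with earlier results of these data known. Genes were named by a rule: the 12 largest differences in each direction among called genes whose lines do not overlap, up to 5 called members of each list with the smallest p, the called Hox genes, the sex-linked genes, runs of neighbouring called genes, up to 4 per direction for the difference between treatments, and Pkm and Pklr. The ranking passed over unnamed transcripts, small RNAs and receptors of smell and pheromones. Other genes were named after their values were seen. The alternatives were renewed quantile normalization, arrays shifted to 1 median, tests without the 30% dimmest genes, trended and robust eBayes, weighted arrays, the mean of probe sets or every probe set separately, 1 array left out at a time, no term for tamoxifen, a model of the group means, and a test against a fold of 1.5. Chosen after seeing the data were a fit without 3 arrays at one end of the first principal component and a fit with the leading within-group axis as covariate.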

Additional observations from a re-analysis of the deposited data

Results flagged for a closer look

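Within the 4 samples of each line, the 24 genes with the largest line differences gave 48 groups of values. Chance gives about 1 in 20 groups where the 4 samples are alike in kind. Each group here mixes 2 samples without and 2 with tamoxifen, so that rate is only a rough guide. Of the 48, 3 held a sample far from the other samples. All 3 were in line A without tamoxifen. Lilr4b, a myeloid receptor, was at 6.12 in replicate 1 and at 6.45 to 6.47 in the other line A samples. Plac8 was at 7.66 in replicate 1 and at 8.32 to 8.42 in the others. Emcn was at 5.90 in replicate 2 and at 6.15 to 6.19 in the others. In each case the odd sample lay farther from line B than the rest of line A. The ranking kept only genes whose lines do not overlap, so an odd sample toward the other line tended to remove its gene. That direction is therefore not a result. The calls of these genes were kept without each of the 8 arrays. The cause was not tested.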

How the results depend on the processing

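The line difference over both treatments (293 genes) stayed within 1.5 times under a common median (259), renewed quantile normalization (306), without the 30% dimmest genes (266), with trend and robust (290), with the mean of probe sets (292), with each probe set on its own (303), in the model of group means (261) and without the 3 arrays at one end of the first principal component (320). It was 441 with array weights, 731 with the leading axis within groups as a covariate (all 293 among them), 128 without a term for tamoxifen and 13 in the test against a fold of 1.5. That axis was taken from the spread within groups of these same data and is balanced within each group. It leaves the line differences as they are and takes up residual spread, so a rise in calls was largely built in. With 1 array left out it ran from 116 to 283. Without tamoxifen (65 genes) it was 15 in a fit of those 4 samples alone and 292 with the covariate, and 4 to 79 with 1 array left out, moving by over 1.5 times without any array except those of line B with tamoxifen. With tamoxifen (106 genes) it was 195 with each probe set on its own, 20 in a fit of those 4 samples alone, 463 with the covariate and 0 to 102 with 1 array left out; it was 0 in limma without either line A array with tamoxifen (693 and 815 at an unadjusted p under 0.05) stayed at 102 without either line B array without tamoxifen, and was 34 to 48 without any of the others. A group left with 1 sample was assumed to vary like the others. The difference between treatments was 0 under every alternative run for it (259 to 1494 at an unadjusted p under 0.05). Of the 24 ranked genes, 0 changed direction and 12 were called under every setting run; the 22 losses were 12 in the test against a fold of 1.5, 8 further ones of Gabrb2, and Cd53 and Lum without a term for tamoxifen. The causes were not tested. No paired analysis was possible because the labels number no replicates.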
